A study of Mus musculus with 42 samples.

Results

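The arcuate nucleus (ARC) of fed mice was compared with the paraventricular nucleus (PVN) of fed mice over all genes of the table. The comparison used 11 of the 42 libraries of the series, chosen by their labels alone, with 5 libraries of fed ARC and 6 of fed PVN. All came from adult wild-type male mice that had food ad libitum until the brain was taken. The labels give the strain as C57/BL6, and the study's methods name a C57BL/6J background. No group carried a transgene or an engineered allele. The series also holds both nuclei from mice fasted for 24 hours (5 ARC and 5 PVN libraries) and the ventromedial (VMH) and dorsomedial hypothalamus (DMH) in the same nutritional states. Nuclei were cut from stained cryosections by laser-capture microdissection, which lifts a marked area of tissue with a laser, so each library is a small piece of tissue with neurons, glia and vessels in it. The small RNA yield was amplified before unstranded RNA-seq.

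The ARC lies at the base of the hypothalamus beside the median eminence. It holds the neurons that make agouti-related protein and neuropeptide Y, which drive feeding, and those that make proopiomelanocortin, whose product alpha-MSH restrains it, along with neuroendocrine cells that reach the pituitary portal blood. The PVN lies at the top of the third ventricle. It is a main target of the ARC feeding neurons and holds magnocellular neurons, which send oxytocin and vasopressin to the posterior pituitary, and parvocellular neurons, which make corticotropin-releasing and thyrotropin-releasing hormone. The neurons that make agouti-related protein also release GABA, and PVN neurons are mainly glutamatergic and of the Sim1 lineage.

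RPKM, the unit of all levels, divides reads by gene length and library size. Levels are given as mean ± SD over the 5 ARC or 6 PVN libraries unless single libraries are listed. Each difference subtracts the PVN from the ARC after taking log2(RPKM + 1), is followed by its standard error (SE), and is positive where the ARC was higher. A gene is said to be higher in a nucleus when its limma p was under 0.1 after Benjamini-Hochberg adjustment across the genes tested. The authors added a count to every gene before they computed RPKM, so that a gene with no reads still shows a value, with a median of 1.60 RPKM over genes for which that value could be found. Folds of genes with low levels are understated for that reason.

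The study's methods describe cutting the PVN, ARC, VMH and DMH from serial sections of the same brains, so ARC and PVN libraries probably share mice. The labels do not tie libraries to mice. Libraries were therefore treated as independent, the sharing of mice was not modelled, and p-values measure the spread between libraries. The estimated depth, in M reads, was 4.48 ± 0.328 in the fed ARC (range 4.02 to 4.86) and 4.59 ± 1.57 in the fed PVN (1.88 to 6.22), a difference within the spread between libraries (two-sided exact permutation test, n = 5 and 6, p = 0.922). This depth is a library size implied by the RPKM values. It lies below the average number of reads sequenced per sample that the study reports. The share of the summed RPKM that fell on IDs without a gene symbol was 25.0 ± 2.10% in the ARC and 30.8 ± 4.84% in the PVN (exact permutation p = 0.0303). The 3 PVN libraries numbered 1, 3 and 5 stood apart with 33.3% to 36.7%. Pearson correlations of the log2 values across genes were 0.952 to 0.969 within the ARC, 0.941 to 0.980 within the PVN and 0.923 to 0.965 between them. Defining transcripts of each nucleus followed the labels. Agrp, Npy and Pomc were at least 105 RPKM in every ARC library and at most 14.3 in any PVN library. Oxt and Avp were at least 1536 in every PVN library and at most 123 in the ARC. The VMH marker Nr5a1 stayed under 1 RPKM in all 11.

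Of 33579 genes tested, 1388 (4.13%) passed the threshold. Of these, 643 (1.91%) were higher in the ARC and 745 (2.22%) were higher in the PVN. A difference of at least 1 was reached by 220 and 259 of them, at least 2 by 39 and 41, and at least 3 by 12 and 12. Protein-coding genes made up 591 of the calls in the ARC and 698 in the PVN. The libraries of the nuclei did not overlap for 980 of the genes tested (2.92%), 457 with the ARC above (1.36%) and 523 with the PVN above (1.56%). Most differences were small, with a median absolute difference of 0.81 among the calls. The list counts given below are to be read against these shares over all genes tested. The filter at 1 RPKM lies below the median value shown by a gene with no reads (1.60 RPKM), so it let unread genes through. Of the 37907 IDs, 5241 showed no sign of a read in any of the 42 libraries, more than the filter removed. Unread genes could not be called, so they lower these shares. With a filter at 5 RPKM, 1297 of 17399 genes passed, so the share was larger among genes of higher level. The lists and their members were chosen with earlier results of these data known, so their counts describe the lists. Without the 3 PVN libraries of high unnamed share 932 genes passed, 381 of them higher in the ARC. With that share as a covariate 935 passed. These settings were chosen after seeing the data. Without those libraries the counts of the lists described below changed from 16 to 14 tuberal and 8 to 6 PVN transcription factors, 7 to 5 tanycyte markers in the ARC and 12 to 11 vessel markers in the PVN, while the 10 calls of GABA-A subunits and 6 of dopamine genes were kept in number. The values place the libraries in 3 sets, where the study's methods speak of batches that the labels do not name. With the set as a covariate, 1274 genes passed. Set means had been removed from the values before deposit, so this covariate cannot show whether batch affected the calls. Within the sets, 1323 of the 1388 calls (95.3%) had the same direction in all 3, a count that is no separate evidence, since the calls were chosen on these same libraries and 1 set holds a single fed ARC library.

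**Figure D1:**
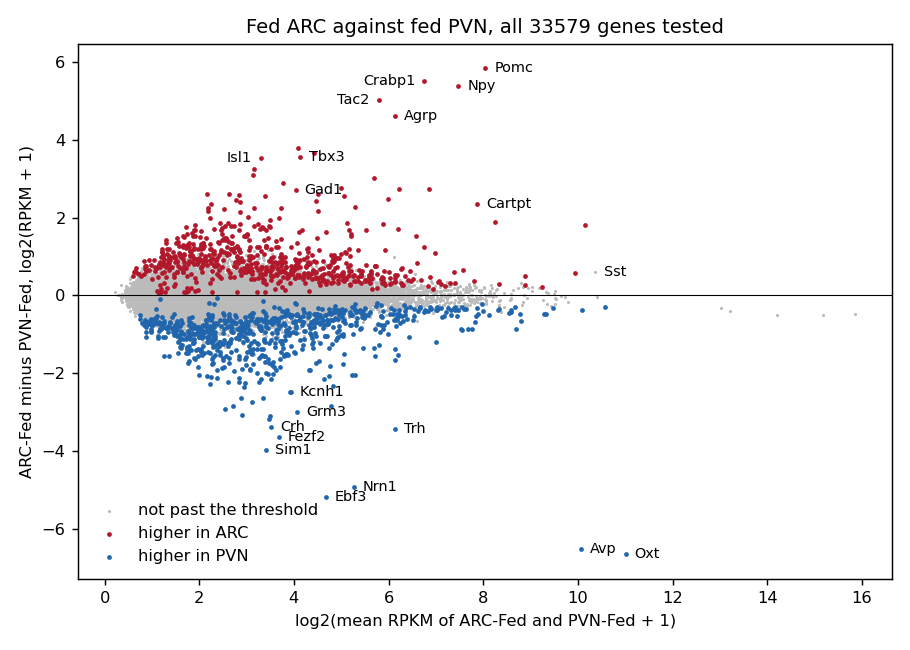
Difference between fed ARC and fed PVN (y axis, log2(RPKM + 1), ARC minus PVN) against the mean level over both nuclei (x axis, log2) for the 33579 genes tested. Red and blue points are the 643 and 745 genes higher in the ARC and in the PVN. Pomc, Crabp1 and Npy lie highest, and Oxt and Avp lie lowest.

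The genes of the ARC feeding circuit and its leptin and melanocortin signalling differed between the nuclei by wide margins. Of 12 listed genes tested, 7 were higher in the ARC and 3 (the processing enzymes Pcsk1, Pcsk2 and Cpe) in the PVN, with a median difference of 0.95 against 0.00 over all genes tested. Pomc, the precursor of alpha-MSH and beta-endorphin on chromosome 12 (chr12:3954951-3960642, GRCm38), measured 517, 531, 493, 634 and 414 RPKM in the 5 ARC libraries. In the PVN it ranged from 4.75 to 14.3 with a median of 7.22. Every ARC library was far above every PVN library, and the difference was 5.84 ± 0.28 (limma adjusted p = 4.55e-17).

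Npy, the precursor of the orexigenic neuropeptide Y on chromosome 6 (chr6:49822710-49829507), was at 314, 359, 453, 284 and 317 RPKM in the ARC libraries and from 4.8 to 11 in the PVN (median 6.60). The difference was 5.38 ± 0.42 (adjusted p = 1.19e-11). Agrp, which encodes the antagonist of melanocortin receptors and is made by the same neurons, was at 179, 157, 110, 116 and 105 RPKM in the ARC and from 1.97 to 12.1 in the PVN (median 3.61). Its difference was 4.62 ± 0.32 (adjusted p = 4.62e-13). No library of either nucleus came near the other group for these genes. About 11.3% of the annotated exon length of Agrp overlaps another gene. Cartpt, the precursor of the CART peptides made in Pomc neurons and in other cells, measured 401, 438, 352, 460 and 283 RPKM in the ARC and 44.1 to 141 in the PVN (median 79.0). Its ratio of means was 4.83, below the 59.4 of Pomc, the 45.9 of Npy and the 26.4 of Agrp.

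The receptors of this circuit differed less. The melanocortin receptor Mc3r, found on ARC neurons, was at 10.9 ± 2.70 RPKM in the ARC and 1.72 ± 0.725 in the PVN (difference 2.14 ± 0.27, adjusted p = 5.72e-07). The leptin receptor Lepr was at 3.18 ± 0.321 and 0.737 ± 0.212 RPKM (1.27 ± 0.17, adjusted p = 1.38e-06), and its transducer Stat3 at 15.7 and 9.69 (0.63 ± 0.19, adjusted p = 0.066). Mc4r, the receptor through which alpha-MSH acts on PVN neurons, had a mean of 1.98 ± 1.45 RPKM in the ARC and 4.0 ± 2.60 in the PVN, with libraries from 0.668 to 4.05 and from 1.01 to 7.61. These overlapped, and the difference of -0.69 ± 0.38 did not pass (adjusted p = 0.543). The feedback inhibitor Socs3 did not pass either (1.97 against 1.13 RPKM, adjusted p = 0.25).

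The promoters of the 4 peptide genes with the highest levels among those that differed most are shown, 2 for each nucleus, so that the start regions of genes with opposite differences can be read side by side. The sequences are the RefSeq windows of 300 bases (250 before and 50 after the start) on GRCm38.p6, written 5′ to 3′ on the gene's own strand, Pomc at chr12:3954695-3954994 on the plus strand, Npy at chr6:49822460-49822759 on the plus strand, Oxt at chr2:130575919-130576218 on the plus strand and Avp at chr2:130582539-130582838 on the minus strand. Capitals mark matches on either strand to any of 4 motifs. The letters ACGTG are the core bound by bHLH-PAS factors such as SIM1 with ARNT2. The letters TAATTA are a homeodomain palindrome. The letters AGGTCA are a motif of nuclear receptors. The letters TATAAA are the core of the TATA box.
Pomc: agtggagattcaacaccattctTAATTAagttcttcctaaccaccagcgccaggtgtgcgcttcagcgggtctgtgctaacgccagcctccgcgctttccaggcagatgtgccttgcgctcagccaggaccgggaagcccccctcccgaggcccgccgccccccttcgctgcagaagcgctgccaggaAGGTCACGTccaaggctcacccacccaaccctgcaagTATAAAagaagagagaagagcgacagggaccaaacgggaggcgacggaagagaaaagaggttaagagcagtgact
Npy: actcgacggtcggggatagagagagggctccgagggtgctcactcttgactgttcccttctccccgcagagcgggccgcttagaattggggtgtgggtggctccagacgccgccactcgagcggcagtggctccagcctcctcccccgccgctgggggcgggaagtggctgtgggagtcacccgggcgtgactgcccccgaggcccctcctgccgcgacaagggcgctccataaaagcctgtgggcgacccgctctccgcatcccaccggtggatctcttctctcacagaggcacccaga
Oxt: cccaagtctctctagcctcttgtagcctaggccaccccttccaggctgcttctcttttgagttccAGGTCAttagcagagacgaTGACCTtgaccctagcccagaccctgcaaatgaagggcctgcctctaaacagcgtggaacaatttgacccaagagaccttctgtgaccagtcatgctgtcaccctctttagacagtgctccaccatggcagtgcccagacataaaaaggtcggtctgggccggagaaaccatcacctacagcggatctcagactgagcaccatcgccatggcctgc
Avp: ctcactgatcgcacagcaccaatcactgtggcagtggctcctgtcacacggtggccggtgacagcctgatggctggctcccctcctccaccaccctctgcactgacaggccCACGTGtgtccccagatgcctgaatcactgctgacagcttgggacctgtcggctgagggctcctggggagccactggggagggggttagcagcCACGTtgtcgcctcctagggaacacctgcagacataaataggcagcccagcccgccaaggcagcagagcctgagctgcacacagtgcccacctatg
Each of the 4 motifs occurred once in the Pomc window, where the nuclear receptor motif and the ACGTG match overlap. None occurred in the Npy window. The Oxt window held 2 nuclear receptor motifs, and the Avp window held 3 ACGTG matches, 2 of which are the strands of a single palindrome. Of all 32851 promoters of this length, 19.6% held the bHLH-PAS core, 16.3% the nuclear receptor motif, 13.6% the TATA box core and 5.29% the homeodomain palindrome. Among genes that differed by at least 1 and had a promoter in the table, counting a gene once if any of its promoters held the motif, the bHLH-PAS core was in 37 of 172 ARC genes (21.5%) and 47 of 177 PVN genes (26.6%), against 21.8% of all genes. The nuclear receptor motif was in 17.4% of the ARC genes and 9.04% of the PVN genes, against 18.1% of all genes. These are descriptions of the letters in the windows and name no bound site.

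Several other precursors and markers of ARC neurons were high in the ARC alone of this pair. Crabp1, a cytosolic binding protein for retinoic acid, measured 245, 246, 186, 180 and 193 RPKM in the ARC and 1.33 to 7.68 in the PVN (median 3.67), a difference of 5.53 ± 0.29 (adjusted p = 4.77e-16). Tac2, the neurokinin B precursor of the neurons that pace GnRH release, measured 183, 114, 88.1, 85.3 and 61.5 RPKM in the ARC and 1.24 to 3.04 in the PVN (5.03 ± 0.36, adjusted p = 1.14e-12). Ghrh, the releasing hormone for growth hormone, measured 286, 196, 135, 199 and 177 RPKM and 14.7 to 55.8 (2.72 ± 0.42, adjusted p = 2.31e-05). None of the 3 overlapped between the nuclei. ARC library 1 held the highest Tac2 and Ghrh values.

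In the fed VMH and DMH, the neighbours of the ARC, Pomc averaged 19.4 ± 5.71 and 10.5 ± 4.36 RPKM and Crabp1 1.77 ± 0.332 and 3.72 ± 1.20, so both were highest in the ARC. Tac2 averaged 50.5 ± 11.6 in the DMH and Ghrh 64.9 ± 30.5, between the ARC and PVN levels.

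Remaining genes with the largest differences in favour of the ARC included receptors and genes of little known function. Rxfp1, the relaxin receptor, was at 15.2 ± 3.89 RPKM in the ARC and 0.680 ± 0.219 in the PVN (difference 3.25 ± 0.23). Tnfaip8l3, a lipid transfer protein, was at 38.8 ± 12.9 and 2.18 ± 1.28 (3.67 ± 0.27), and Cited1, a transcriptional coactivator, at 89.5 ± 10.5 and 11.3 ± 6.38 (3.01 ± 0.23). The uncharacterised X-linked gene 4933403O08Rik was at 66.7, 18.9, 27.2, 20.7 and 21.0 RPKM in the ARC libraries, with library 1 far above the others, and at most 1.54 in the PVN (3.78 ± 0.29). All 4 had adjusted p-values of 7.42e-12 or less.

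The PVN was marked by the peptides of its neurosecretory cells. Of 12 magnocellular and parvocellular peptide genes tested, 6 were higher in the PVN and 0 in the ARC, with a median difference of -1.35. Oxt, the oxytocin precursor on chromosome 2 (chr2:130576173-130577054), measured 123, 42.6, 57.1, 22.8 and 11.3 RPKM in the ARC and ranged from 2744 to 5076 in the PVN (median 4175). The PVN mean of 4066 ± 955 was 79.2 times the ARC mean, and the difference was -6.66 ± 0.45 (adjusted p = 2.35e-13). Avp, the vasopressin precursor that lies next to Oxt (chr2:130580620-130582554), measured 43.6, 14.7, 31.7, 30.3 and 6.36 RPKM in the ARC and 1536 to 3400 in the PVN (median 1884), a difference of -6.53 ± 0.34 (adjusted p = 3.33e-16). These were the largest differences of all genes that passed, in either direction. The geometric mean of the Oxt to Avp ratio was 1.81 in the ARC (0.752 to 2.90 per library) and 1.95 in the PVN (1.49 to 2.35). The transcripts of both genes share sequence with other genes, 16% and 14.8% of their 50-base stretches.

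The releasing hormones followed. Trh, the thyrotropin-releasing hormone precursor, measured 9.49, 11.4, 7.56, 9.23 and 13 RPKM in the ARC and 71.3 to 204 in the PVN (median 114), a difference of -3.44 ± 0.37 (adjusted p = 2.15e-08). Crh, which drives the pituitary and adrenal stress axis, was at or under 1.33 RPKM in every ARC library, 3 of which sat at its no-read value, and ranged from 15.5 to 24.1 in the PVN (-3.39 ± 0.18, adjusted p = 3.71e-16). Its PVN level was far below that of Oxt, and the libraries of the nuclei did not overlap. Ucn3, a ligand of the CRH receptor type 2, ranged from 6.47 to 46.9 RPKM in the PVN with its highest value in library 1, against 0.770 to 1.83 in the ARC (-3.10 ± 0.41, adjusted p = 1.32e-06).

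Adcyap1, the PACAP precursor, averaged 3.52 ± 2.45 RPKM in the ARC and 17.2 ± 5.16 in the PVN (-2.14 ± 0.28, adjusted p = 9.24e-07), and Penk, the enkephalin precursor, 37.1 ± 8.35 and 108 ± 6.06 (-1.54 ± 0.21, adjusted p = 3.3e-06). Not every peptide of this group separated the nuclei. Sst, the somatostatin precursor, was at 1522 ± 137 RPKM in the ARC and 1098 ± 573 in the PVN, where libraries ran from 562 to 2103 (0.61 ± 0.22, adjusted p = 0.179). Gal (90.3 against 46.7 RPKM, adjusted p = 0.167), Pdyn (52.0 against 60.4), Tac1 (33.3 against 52.9) and Nts (3.16 against 3.49) did not pass. Cck averaged 18.9 ± 25.8 RPKM in the ARC because library 1 held 64.1, while the other 4 held 3.36 to 16.6 and the PVN 21.2 to 28.0.

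Among 31 other precursor and related genes tested, 2 were higher in the ARC (Tac2 and Ghrh) and 4 in the PVN (Ucn3, Nucb2 and the synaptic organisers Cbln1 and Cbln2). Of the 31, 4 showed no sign of a read in the fed libraries and so could not be called. Cbln1 was at 9.98 ± 3.29 and 34.3 ± 10.6 RPKM and Cbln2 at 2.25 ± 1.61 and 10.6 ± 4.84. Hcrt and Pmch, the markers of lateral hypothalamic neurons, were at most 3.74 and 11.4 RPKM in any of the 11 libraries and did not pass.

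Summed over 42 peptide precursor genes, the PVN held 7950 ± 1905 RPKM and the ARC 3605 ± 236. Levels per length placed Sst first in the ARC with 42.4 ± 4.95% of that sum, then Pomc (14.4 ± 2.35%), Cartpt (10.7 ± 1.90%), Npy (9.63 ± 2.09%), Ghrh (5.46 ± 1.17%), Agrp (3.66 ± 0.663%) and Tac2 (2.90 ± 1.05%). The ranges over libraries overlapped between Pomc and Cartpt, Cartpt and Npy, Ghrh and Agrp, and Agrp and Tac2, so only Sst, the group of Pomc, Cartpt and Npy, and the group of Ghrh, Agrp and Tac2 stood in a clear order. In the PVN the order was Oxt (51.2 ± 3.84%), Avp (26.5 ± 4.28%), Sst (13.4 ± 4.72%), Trh (1.60 ± 0.530%) and Penk (1.44 ± 0.386%), where the ranges of Trh and Penk overlapped.

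**Figure D2:**
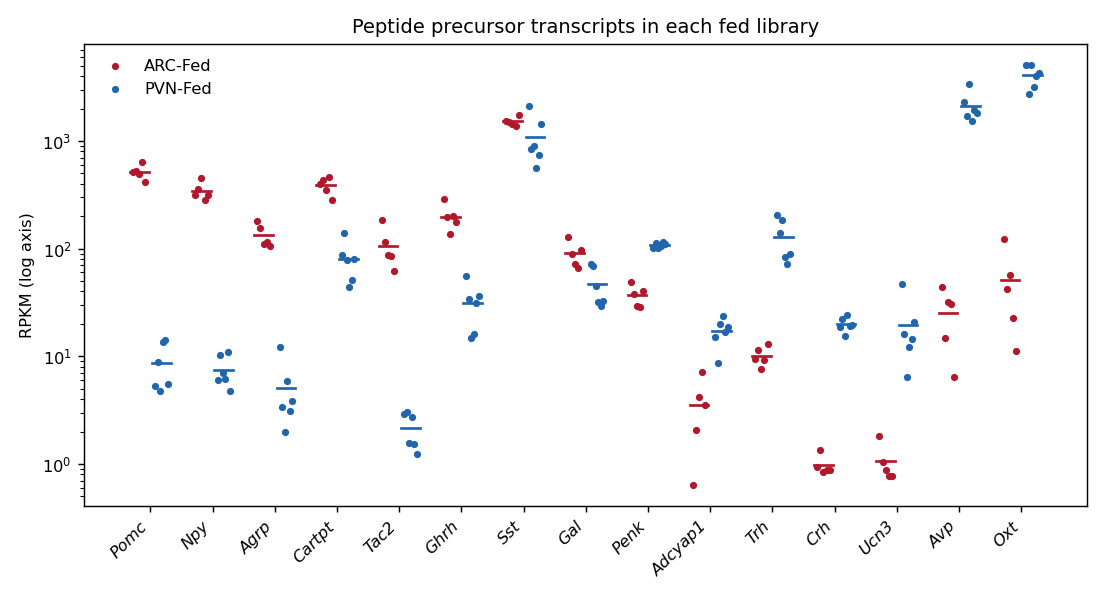
RPKM on a log axis of 15 peptide precursor genes in each fed library, with ARC-Fed in red (n = 5) and PVN-Fed in blue (n = 6). Short lines are the means. Pomc, Npy, Agrp and Tac2 lie in 2 separate bands with the ARC above, Trh, Crh, Ucn3, Avp and Oxt in 2 bands with the PVN above, and Sst and Gal overlap.

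Transcription factors of the PVN lineage were almost all higher in the PVN. Of 9 tested, 8 were higher in the PVN and 0 in the ARC, and the libraries did not overlap for 7. Over all genes tested, 2.22% were higher in the PVN, and 1.56% did not overlap with the PVN above. This list and the tuberal list below were chosen with earlier results of these data known. Their counts describe the lists and are no separate evidence. Sim1, the bHLH-PAS factor without which the PVN does not form, was under 0.33 RPKM in every ARC library and ranged from 16.8 to 25.5 in the PVN (median 18.0), a difference of -3.98 ± 0.13 (adjusted p = 5.09e-22). Its partner Arnt2 was present in both nuclei, at 25.5 ± 2.52 and 76.8 ± 4.63 RPKM (-1.56 ± 0.11, adjusted p = 7.15e-13). Pou3f2, which acts downstream of them in the neurosecretory lineage, was at 1.26 ± 0.575 and 19 ± 3.18 RPKM (-3.17 ± 0.23).

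Ebf3, a helix-loop-helix factor, showed the largest difference of any transcription factor listed. It measured 0.409, 0.220, 0.313, 0.639 and 0.303 RPKM in the ARC and 40.3 to 56.8 in the PVN (median 51.0), a difference of -5.18 ± 0.19 (adjusted p = 5.08e-21). In the fed DMH it averaged 15.2 ± 2.83 RPKM and in the VMH 0.669 ± 0.416. Fezf2, a zinc finger factor, was at 0.732 ± 0.342 and 22.9 ± 13.5 RPKM (-3.64 ± 0.28), and Uncx, a homeobox factor, at 0.558 ± 0.135 and 10.5 ± 2.91 (-2.85 ± 0.18). Otp, which specifies the same neurosecretory neurons, was 5.67 ± 3.43 RPKM in the ARC and 32.7 ± 38.4 in the PVN. PVN library 1 held 110 RPKM of Otp, the other 5 held 7.55 to 27.8, and the libraries overlapped (-1.93 ± 0.40, adjusted p = 0.00184). Pou3f1 did not pass. Prdm8, a histone methyltransferase homologue outside the list, was at 0.511 ± 0.147 and 12.4 ± 4.56 RPKM (-3.09 ± 0.27, adjusted p = 1.49e-10), although 29.1% of its exon length overlaps another gene.

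The factors of the tuberal and ARC lineage went the other way. Of 22 tested, 16 were higher in the ARC and 0 in the PVN, with a median difference of 1.24. Over all genes tested the shares were 1.91% and 2.22%. The libraries did not overlap, with the ARC above, for 13 of the 22 and for 1.36% of all genes tested. Tbx3, which maintains the identity of Pomc and Agrp neurons, measured 38.1, 36.9, 28.3, 24.4 and 27.9 RPKM in the ARC and 0.768 to 3.21 in the PVN (median 1.42), a difference of 3.57 ± 0.24 (adjusted p = 1.9e-13). Isl1, which switches on Pomc, measured 18.3, 21.1, 14.4, 18.4 and 13.5 RPKM and 0.431 to 0.833 (3.54 ± 0.26, adjusted p = 3.4e-12). Nkx2-1, a factor of the ventral hypothalamus, measured 15.9, 13.8, 10.5, 19.4 and 13.7 RPKM and 0.498 to 1.28 (3.11 ± 0.16, adjusted p = 9.32e-17). Tbx3 was at 1.35 ± 0.938 RPKM in the VMH and 1.61 ± 0.792 in the DMH, while Nkx2-1 was at 13.9 ± 1.82 in the VMH and 8.94 ± 0.598 in the DMH.

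Bsx, which is needed for Npy and Agrp expression, was at 70.9 RPKM in ARC library 1 and at 10.1 to 14.1 in the other 4, against 1.17 to 1.82 in the PVN (2.90 ± 0.33, adjusted p = 7.54e-08). The Dlx homeobox genes of GABA neurons were higher in the ARC for all 4 members tested, Dlx1 (13.4 ± 3.58 against 2.43 ± 2.53 RPKM), Dlx2, Dlx5 and Dlx6. The Dlx5 libraries overlapped, with 15.1 RPKM in PVN library 1 and 5.17 to 15.6 in the ARC. Six6 (6.47 ± 1.44 against 0.669 ± 0.303 RPKM), Six3, Prox1, Gsx1, Lhx1, Sox14, Nr0b1 and Hmx2 completed the 16. Insm1, Rax, Hmx3 and Nhlh2 were among those that did not pass.

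**Figure D3:**
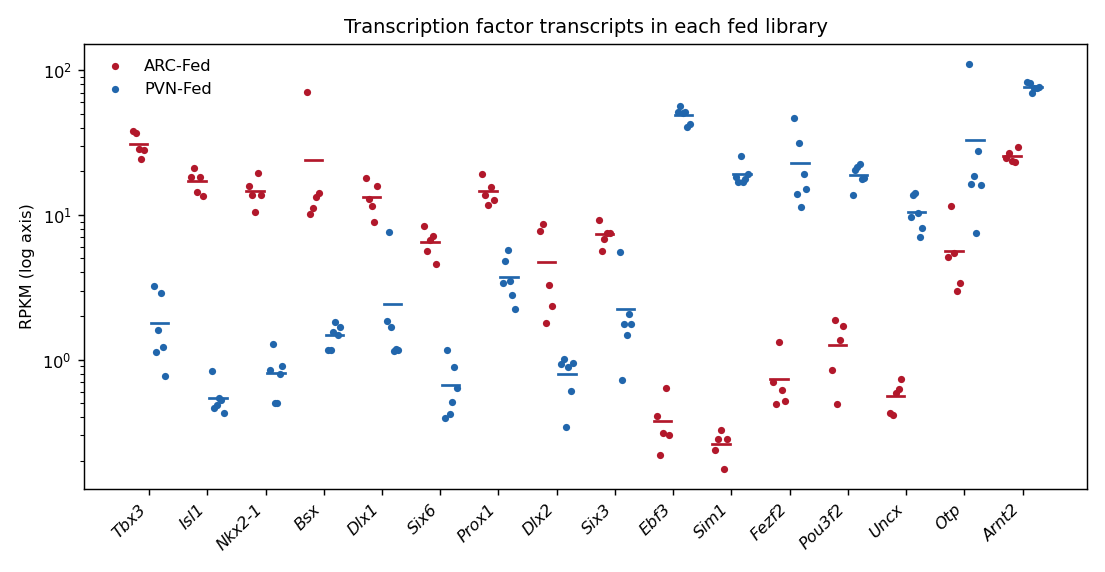
RPKM on a log axis of 16 transcription factor genes in each fed library, ARC-Fed in red (n = 5) and PVN-Fed in blue (n = 6), with short lines at the means. From Tbx3 to Six3 the ARC points lie above all PVN points, and for Ebf3, Sim1, Fezf2, Pou3f2, Uncx and Arnt2 below all of them, while Otp overlaps. The single high points of Bsx (ARC library 1) and Otp (PVN library 1) stand apart.

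Fast transmitter genes split in the same way. Of 5 GABA neuron genes 4 were higher in the ARC and 0 in the PVN. Gad1, a GABA-synthesising enzyme, measured 33.6, 22.8, 25.3, 25.1 and 29.4 RPKM in the ARC and 1.97 to 7.16 in the PVN (median 2.94), a difference of 2.70 ± 0.25 (adjusted p = 5.65e-10). The vesicular GABA transporter Slc32a1 was at 35.7 ± 6.36 and 6.24 ± 2.99 RPKM (2.41 ± 0.33, adjusted p = 3.18e-06), and Gad2 at 150 ± 49.0 and 63.0 ± 22.9 (1.25 ± 0.22, adjusted p = 0.000235). The fourth was Abat, which breaks GABA down. The geometric mean of the Gad2 to Gad1 ratio was 5.36 in the ARC (4.37 to 7.06) and 18.5 in the PVN (8.34 to 40.7). Exons of Slc32a1 overlap another gene over 24.9% of their length.

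Slc17a6, the vesicular glutamate transporter of hypothalamic neurons, measured 28.2, 33.2, 27.9, 28.4 and 22.3 RPKM in the ARC and 52.3 to 98.9 in the PVN (median 73.7), a difference of -1.34 ± 0.17 (adjusted p = 6.47e-07). Of 5 glutamate neuron genes 2 were higher in the PVN and 0 in the ARC, this one by the larger margin, and 1 was without the 3 PVN libraries of high unnamed share or in the fit on the fed ARC and PVN libraries alone. Within each library, the ratio of Slc32a1 to Slc17a6 had a geometric mean of 1.26 in the ARC (0.862 to 1.7) and 0.0794 in the PVN (0.0421 to 0.206), so the ranges did not come near each other. The ratio of Gad1 to Slc17a6 was 0.971 in the ARC and 0.0452 in the PVN. By Gad2 the PVN ratio was nearer to 1, with 0.838 (0.514 to 1.77) against 5.21 in the ARC (3.89 to 8.42). In a piece of tissue, fewer cells of a type and less RNA per cell cannot be told apart.

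Dopamine genes, a list that also holds the receptor Drd1, were higher in the ARC for 6 of 8 tested and higher in the PVN for 0. In the fit on the fed ARC and PVN libraries alone 4 were higher in the ARC. The Drd1 libraries of the nuclei overlapped. The dopamine transporter Slc6a3 was at 4.84 ± 1.15 and 0.662 ± 0.306 RPKM (1.81 ± 0.18, adjusted p = 6.22e-09), the vesicular monoamine transporter Slc18a2 at 16 ± 4.04 and 4.09 ± 1.65 (1.78 ± 0.32), and Ddc, Gch1, Nr4a2 and Drd1 also passed. Th, the rate-limiting enzyme, did not. It ranged from 13.1 to 39.1 RPKM in the ARC and from 6.45 to 40.6 in the PVN (0.68 ± 0.29, adjusted p = 0.318). Slc6a3 averaged 1.06 ± 0.606 in the DMH and 0.481 ± 0.263 in the VMH, so it was highest in the ARC.

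Hormone receptors differed between the nuclei in both directions. Of 21 receptors for peripheral hormones, 5 were higher in the ARC (Lepr, Esr1, Prlr, Pgr and Ghsr) and 3 in the PVN (Esr2, Igf1r and Cckar). The estrogen receptors were opposed. Esr1 was at 7.34 ± 1.37 RPKM in the ARC and 1.81 ± 0.547 in the PVN (1.57 ± 0.14, adjusted p = 6.46e-10), and Esr2 at 0.914 ± 0.546 and 3.36 ± 1.66 (-1.11 ± 0.22, adjusted p = 0.00138), although Esr2 was low and a single PVN library held 0.680 RPKM. Prlr, the prolactin receptor, was at 16.4 ± 2.25 and 6.40 ± 1.33 RPKM (1.24 ± 0.14, adjusted p = 4.91e-08). Ghsr, the ghrelin receptor, was at 6.35 ± 1.85 and 2.33 ± 2.61 (1.36 ± 0.26, adjusted p = 0.000684). Cckar, the receptor through which cholecystokinin signals satiety, measured 4.04, 3.75, 2.36, 2.36 and 5.22 RPKM in the ARC and 15.4 to 38.0 in the PVN (-2.50 ± 0.32, adjusted p = 9.24e-07). The GLP-1 receptor Glp1r averaged 32.4 RPKM in both nuclei, and the receptors for insulin and glucocorticoid (Insr, Nr3c1) did not pass.

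Receptors for neuropeptides leaned to the ARC, with 11 of 38 tested higher there and 1 higher in the PVN. Over all genes tested the shares were 1.91% and 2.22%. All 3 neuropeptide Y receptors of the list were among the 11. Npy2r, the presynaptic receptor of Npy neurons, measured 24.6, 45.7, 46.7, 31.7 and 31.6 RPKM in the ARC and 3.34 to 9.93 in the PVN (2.18 ± 0.30, adjusted p = 4.8e-06). Npy1r was at 37.6 ± 5.30 and 11.6 ± 2.52 (1.63 ± 0.24) and Npy5r at 9.59 ± 5.89 and 1.79 ± 0.580 (1.78 ± 0.28). The oxytocin receptor Oxtr was higher in the ARC than in the nucleus that makes oxytocin, at 4.48 ± 1.69 against 0.841 ± 0.374 RPKM (1.53 ± 0.30, adjusted p = 0.000951). Mc3r, Sstr3, Sstr5, Gpr83, Crhr1, Brs3 and Tacr1 made up the rest. The galanin receptor Galr1 was higher in the PVN, at 0.944 ± 0.934 against 4.13 ± 1.78 RPKM (-1.42 ± 0.32, adjusted p = 0.00445). Without the 3 PVN libraries of high unnamed share, 8 receptors were higher in the ARC and 1 in the PVN, and in the fit on the fed ARC and PVN libraries alone 7 and 1 were.

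GABA-A receptor subunits, which assemble into chloride channels of different kinetics and drug sensitivity, divided by subtype. Of 16 tested, 6 were higher in the ARC, Gabra5, Gabrg1, Gabrg3, Gabre and Gabrq among them, and 4 in the PVN, Gabra4 and Gabrb2 among them. The libraries of the nuclei did not overlap for any of the 10. Over all genes tested, 4.13% were called and 2.92% did not overlap. Gabra5 measured 65.7, 53.4, 48.3, 46.9 and 54.3 RPKM in the ARC and 9.54 to 18.4 in the PVN (1.86 ± 0.18, adjusted p = 3.85e-09). Gabrg1 measured 31.1, 27.1, 28.0, 28.2 and 24.6 RPKM in the ARC and 14.1 to 22.1 in the PVN (0.68 ± 0.13, adjusted p = 0.000493).

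The epsilon subunit Gabre, a subunit that can stand in for gamma, measured 80.0, 57.7, 59.6, 64.5 and 56.7 RPKM in the ARC and 10.1 to 18.4 in the PVN (2.28 ± 0.26, adjusted p = 8.25e-08). The theta subunit Gabrq was at 76.3 ± 9.78 and 49.7 ± 6.69 RPKM (0.61 ± 0.11, adjusted p = 0.000301). In the other direction, Gabrb2 was at 6.23 ± 1.87 and 12.6 ± 2.33 RPKM (-0.93 ± 0.15, adjusted p = 7.49e-05) and Gabra4 at 4.53 ± 1.24 and 8.75 ± 2.69 (-0.81 ± 0.19, adjusted p = 0.00803). Gabra2, Gabra3, Gabrb1 and Gabrd did not pass. In the other fed nuclei Gabra5 was at 119 ± 18.6 RPKM in the VMH and 40.2 ± 7.26 in the DMH, while Gabre was lowest in the VMH (5.44 ± 2.17).

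Ionotropic glutamate receptor subunits were also divided, with 5 of 17 higher in the ARC (Grik3, Grik2, Gria2, Gria1 and Grid1) and 3 in the PVN (Grin3a, Gria3 and Grin1). Grik3, a kainate receptor subunit, was at 16.6 ± 3.62 and 3.97 ± 2.61 RPKM (1.94 ± 0.23, adjusted p = 1.77e-07). Grin3a, an NMDA receptor subunit that lowers calcium entry, was at 4.18 ± 1.06 and 17.1 ± 4.61 (-1.79 ± 0.14, adjusted p = 7.12e-12). The metabotropic receptor Grm3, which is not on the list, showed a larger difference than any of them, at 2.74 ± 0.970 and 28.7 ± 6.97 RPKM (-3.01 ± 0.25, adjusted p = 7.88e-11). Potassium channel genes were called in 10 of 47 cases, 3 higher in the ARC and 7 in the PVN, or 2 and 4 without the 3 PVN libraries of high unnamed share. Over all genes tested 4.13% were called. Kcnh1, an ether-a-go-go channel, measured 4.29, 1.57, 5.47, 4.56 and 3.32 RPKM in the ARC and 22.3 to 30.6 in the PVN (-2.47 ± 0.21, adjusted p = 8.92e-11), and the background potassium channel Kcnk2 was at 24.8 ± 5.49 and 11.9 ± 2.16 (0.99 ± 0.18, adjusted p = 0.000443).

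**Figure D4:**
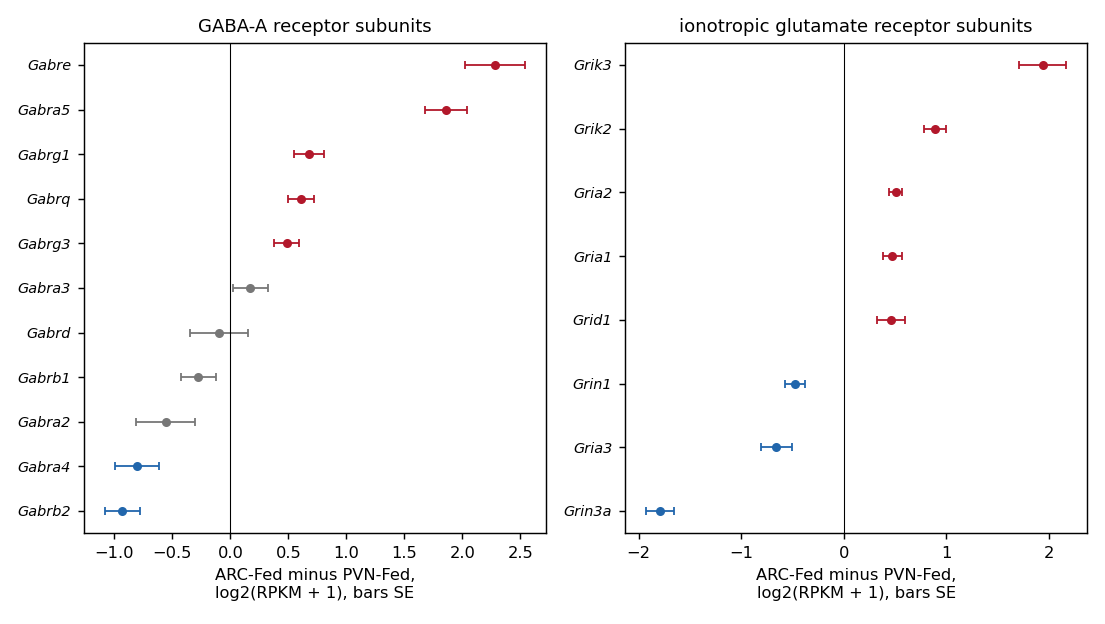
Difference between fed ARC and fed PVN on the log2(RPKM + 1) scale for the GABA-A (left) and ionotropic glutamate receptor subunits (right) named in the text, with bars of 1 SE. Red and blue points passed the threshold with higher levels in the ARC and in the PVN, and grey points did not pass. Gabre (2.28) and Gabrb2 (-0.93) are at the ends of the left panel, and Grik3 (1.94) and Grin3a (-1.79) at the ends of the right panel.

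The machinery that matures and stores prohormones was biased to the PVN by smaller margins. Of 19 genes tested, 7 were higher in the PVN and 1 (Pcsk5) in the ARC. Whether called or not, 13 differences were below 0 and 6 above. In the fit on the fed ARC and PVN libraries alone, 5 were higher in the PVN and 1 in the ARC. The convertase Pcsk1, which makes the first cuts in proopiomelanocortin and other precursors, measured 28.8, 17.1, 19.6, 14.1 and 12.8 RPKM in the ARC and 31.9 to 55.8 in the PVN (-1.10 ± 0.20, adjusted p = 0.000484). Pcsk2, the convertase that cuts further, measured 18.2, 16.8, 17.3, 16.5 and 17.2 RPKM and 33.2 to 49.6 (-1.15 ± 0.10, adjusted p = 1.96e-10). The libraries of the nuclei did not overlap for either. The trimming enzyme Cpe was at 539 ± 65.0 and 745 ± 40.2 RPKM (-0.47 ± 0.08) and the granin Scg2 at 520 ± 32.0 and 728 ± 76.6 (-0.48 ± 0.07), and Scg5, Cadps2 and Ptprn also passed. Nhlh2, a transcription factor that acts on Pcsk1, did not (4.74 against 7.02 RPKM, adjusted p = 0.53).

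Imprinted genes, which are expressed from 1 parental allele and are abundant in the hypothalamus, were called in 13 of 30 cases, 6 higher in the ARC and 7 in the PVN. The largest differences were those of Plagl1, a zinc finger factor, at 37.9 ± 6.25 and 5.87 ± 3.60 RPKM (2.61 ± 0.23, adjusted p = 4.05e-10), and Asb4, an ubiquitin ligase adaptor, which measured 125, 119, 106, 89.7 and 95.9 RPKM in the ARC and 16.1 to 23.2 in the PVN (2.47 ± 0.24, adjusted p = 3.11e-09). Peg10, Ppp1r9a, Zim1 and Magel2 were the other 4, Magel2 by 0.47 ± 0.13 (adjusted p = 0.0286). Among those higher in the PVN were the noncoding RNAs Meg3 (130 ± 19.4 against 238 ± 32.0 RPKM, -0.87 ± 0.11), Rian and Mirg of a single cluster, Nnat (339 ± 13.5 against 549 ± 115), Mest, Gnas and Igf2. The exons of Igf2 and Gnas lie on other genes for 64.5% and 22.0% of their length. Without the 3 PVN libraries of high unnamed share, 4 were higher in each nucleus, as also in the fit on the fed ARC and PVN libraries alone.

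Besides Crabp1, the retinoid list held 3 more genes higher in the ARC of 16 tested, Aldh1a1, Cyp26b1 and Rarb, and 1 higher in the PVN, Rxra. The degrading enzyme Cyp26b1 was at 2.28 against 0.373 RPKM (1.20 ± 0.15, adjusted p = 3.44e-07) and the synthesising enzyme Aldh1a1 at 13.8 against 5.44 (1.26 ± 0.27, adjusted p = 0.0025).

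Markers of non-neuronal cells differed between the captured nuclei as well. Of 18 endothelial and mural cell markers, 12 were higher in the PVN and 0 in the ARC, with a median difference of -1.01. Their summed level was 122 to 158 RPKM in the ARC libraries and 290 to 351 in the PVN libraries. Cldn5, a tight junction protein of the blood-brain barrier, measured 1.57, 1.46, 4.30, 5.32 and 1.19 RPKM in the ARC and 7.39 to 16.8 in the PVN (-1.90 ± 0.32, adjusted p = 0.00012). The pericyte marker Rgs5 measured 33.0, 39.99, 43.3, 37.5 and 36.7 RPKM and 87.6 to 109 (-1.39 ± 0.14, adjusted p = 6.89e-09), and the glucose transporter Slc2a1 was at 20.3 ± 4.88 and 43.1 ± 11 (-1.05 ± 0.17). Slco1a4, Flt1, Tek, Cdh5 and Vtn were among the others. The part of these cells in the other PVN results was not tested. The hemoglobin genes and Alas2 gave 0 calls of 5 by limma, with 2 at an unadjusted p under 0.05.

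Of 12 markers of tanycytes, the ventricular cells that line the floor of the third ventricle beside the ARC, 7 were higher in the ARC and 1 (Lhx2) in the PVN. Gpr50 was at 10.5 ± 3.42 and 1.17 ± 0.934 RPKM (2.44 ± 0.33, adjusted p = 1.93e-06) and Dio2, the deiodinase that activates thyroid hormone, at 6.56 ± 1.76 and 0.584 ± 0.259 (2.24 ± 0.27, adjusted p = 2e-07). Gpr50 was higher still in the fed DMH (54.5 ± 6.40). The summed tanycyte level was 53.2 to 72.4 RPKM in the ARC and 29.2 to 47.9 in the PVN, and Rax, a defining marker, was at 1.07 and 0.657 RPKM and did not pass. The part of these cells in the other ARC results was not tested.

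Astrocyte markers gave 4 calls of 12, all higher in the PVN (Agt, Slc1a3, Gja1 and Glul), with Gfap, Aqp4 and Aldh1l1 not passing. Without the 3 PVN libraries of high unnamed share 1 of 12 passed, and in the fit on the fed ARC and PVN libraries alone 2 were higher in the PVN and 1 in the ARC. Microglia markers gave 4 calls of 12, all higher in the ARC (Ctss, C1qa, C1qb and Itgam). Ctss, a lysosomal protease, was at 45.5 ± 4.91 and 20.9 ± 3.24 RPKM (1.09 ± 0.14, adjusted p = 1.35e-06), but the defining markers P2ry12, Tmem119 and Cx3cr1 averaged 5.75 against 6.64, 5.6 against 4.19 and 7.96 against 7.26 RPKM and did not pass, and 1 of 12 passed without those libraries and in the fit on the fed ARC and PVN libraries alone. Oligodendrocyte markers gave 0 calls of 12 by limma, with 1 at an unadjusted p under 0.05, and their summed level was 144 to 187 RPKM in the ARC and 127 to 184 in the PVN. Ependymal markers gave 1 call of 7 in the ARC (Hdc).

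Markers of neighbouring regions were also counted. Of 6 VMH markers, Nptx2 and Sox14 were higher in the ARC and Fezf1 in the PVN, all under 5 RPKM on average. Sox14 is also counted among the tuberal factors above. The VMH list leaned to the ARC, with 5 differences above 0, 1 below and a median of 0.78. Its summed level was 16.8 to 23.7 RPKM in the ARC libraries and 8.58 to 15.4 in the PVN libraries. Nr5a1 was at 0.442 and 0.333 RPKM against 21.8 ± 10 in the fed VMH itself. Markers of the DMH and lateral area gave 0 calls of 5 by limma, and 0 at an unadjusted p under 0.05. Thalamus markers gave 1 call each way of 5 (Tcf7l2 in the ARC, Rora in the PVN), and pituitary markers gave 1 of 5, Prl, by only 0.09 at the level of a gene with almost no reads.

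Pan-neuronal genes gave 6 calls of 12, 2 higher in the ARC (Syt1 and Rbfox3) and 4 in the PVN (Snap25, Stmn2, Nefl and Nefm). Snap25, a component of the release machinery, was at 314 ± 12.7 and 434 ± 62.8 RPKM (-0.46 ± 0.09, adjusted p = 0.0005). Nefl, a neurofilament subunit of large axons, was at 55.0 ± 5.85 and 117 ± 19.2 (-1.06 ± 0.13, adjusted p = 2.79e-07), with 32.8% of its exon length shared with Nefm, and Thy1, a surface protein of projection neurons, at 76.1 ± 4.62 and 177 ± 19.3 (-1.20 ± 0.15, adjusted p = 3.79e-07). Nrn1, the neurite growth factor neuritin, separated the nuclei further than any of these. It measured 3.75, 0.606, 1.76, 0.865 and 1.01 RPKM in the ARC and 54.6 to 106 in the PVN (median 69.5), a difference of -4.93 ± 0.28 (adjusted p = 4.23e-15), with 22.3% of its exon length shared with Fars2.

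Activity-regulated genes were higher in the PVN for 7 of 15 tested and higher in the ARC for 0. Egr1 measured 27.7, 8.74, 8.29, 9.82 and 16.3 RPKM in the ARC and 40.7 to 90.7 in the PVN (median 55.1), a difference of -2.06 ± 0.25 (adjusted p = 2.41e-07), and Fosl2 was at 6.60 ± 1.98 and 20.8 ± 4.95 (-1.53 ± 0.28, adjusted p = 0.000368). Nr4a1, Ier2, Fosb, Arc and Junb also passed. Fos itself ranged from 2.64 to 5.86 RPKM in the ARC and from 4.8 to 19.7 in the PVN and did not pass (-0.80 ± 0.41, adjusted p = 0.477). Without the 3 PVN libraries of high unnamed share 3 of the 15 were higher in the PVN, with that share as a covariate 4 were, and in the fit on the fed ARC and PVN libraries alone 3 were.

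The other lists gave calls in few members, where 4.13% of all genes tested were called. Glucocorticoid-induced genes gave 1 of 16 (Bcl6, in the ARC), cadherins 2 of 14 (Cdh7 and Cdh13, in the PVN), and glycolysis genes 1 each way of 8 (Ldha in the ARC and Aldoa in the PVN). Among genes of high level, the predicted genes Gm10800 and Gm10801 were higher in the ARC at 1777 ± 777 against 485 ± 208 RPKM and 479 ± 195 against 126 ± 54.2. Their libraries overlapped, they lie a few kilobases apart on chromosome 2, and 27.4% and 17.1% of their 50-base stretches recur in other genes, so their values are uncertain.

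The fasted libraries, whose group means the fed comparison did not use, gave a second contrast of the nuclei. Both contrasts took the spread of each gene from the same fit over all 42 libraries, so the calls they share are not from independent tests. There 1407 genes (4.19%) passed, 667 higher in the ARC (1.99%) and 740 in the PVN (2.2%). Of the 1388 genes called in fed mice, 1317 (94.9%) had the same sign in fasted mice, and 768 were called in the same direction, which is 55.3% of the fed calls and 54.6% of the fasted ones. A single gene was called in opposite directions. All 29 genes that the naming rule picked by difference or level were called in the same direction in fasted mice. Oxt averaged 38.1 ± 30.5 RPKM in the fasted ARC and 4338 ± 774 in the fasted PVN, Pomc 365 ± 70.7 and 7.34 ± 2.44, and Agrp 409 ± 108 and 3.97 ± 1.62.

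The contrast between the nuclei itself differed between fed and fasted mice for 3 genes (0.00893% of those tested) by an interaction term in the limma fit, against 1392 genes with an unadjusted p under 0.05. Rgs2, a regulator of G protein signalling, was at 103 ± 11.9 RPKM in the fed ARC and 77.9 ± 16.2 in the fed PVN. In fasted mice it was at 96.5 ± 19.8 and 164 ± 12.7 (difference of the differences 1.20 ± 0.19, adjusted p = 0.00683). The fed difference in favour of the ARC was small (0.41 ± 0.13, limma adjusted p = 0.0775), and the fed libraries overlapped. The fasted difference in favour of the PVN was larger (-0.79 ± 0.13, limma adjusted p = 0.000136), and the fasted libraries did not overlap. Ppp1r17, a phosphatase inhibitor, was at 15.3 ± 6.34 and 18.9 ± 5.79 RPKM in fed mice, where the libraries overlapped, and at 8.33 ± 3.03 and 47.3 ± 13.5 in fasted mice (2.08 ± 0.36, adjusted p = 0.0266). Lepr was higher in the ARC in both states, at 3.18 against 0.737 RPKM in fed and 9.09 ± 3.10 against 0.635 ± 0.145 in fasted mice (-1.31 ± 0.24, adjusted p = 0.0535). The next gene by p, Adam8, did not pass (1.86 ± 0.37, adjusted p = 0.122). Leaving out 1 library at a time gave 2 to 7 genes, and array weights gave 8. Rgs2 and Ppp1r17 kept their call without any 1 of the 21 libraries, while Lepr lost it in 10 of the 21 cases, with adjusted p-values from 0.012 to 0.138. Those were fed ARC libraries 2 and 3, fed PVN libraries 3, 5 and 6, fasted ARC libraries 1, 2 and 4, and fasted PVN libraries 2 and 3. Lepr also lost it with a pseudocount of 0.1 (adjusted p = 0.297).

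**Figure D5:**
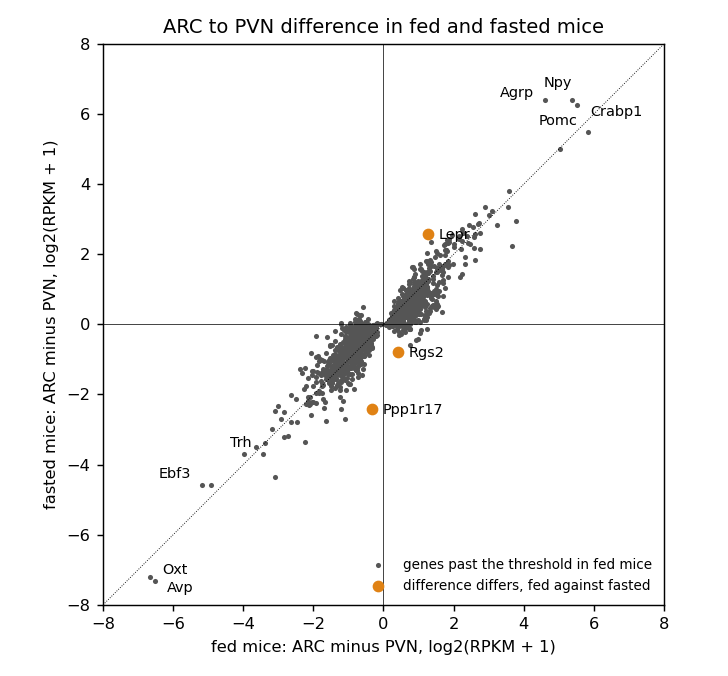
Difference between ARC and PVN in fasted mice (y axis) against that in fed mice (x axis), both on the log2(RPKM + 1) scale, for the 1388 genes past the threshold in fed mice in grey, and in orange for the 3 genes whose difference itself differed between the states, of which Ppp1r17 did not pass in fed mice. The dotted line marks equal differences. Pomc, Npy, Agrp and Crabp1 lie at the top right and Oxt and Avp at the bottom left, and Rgs2 and Ppp1r17 lie below the line.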

How the data were processed

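RNA from laser-captured nuclei was amplified and sequenced by the authors, who aligned reads with TopHat2 (2.0.11) to GRCm38, per the labels, and whose notes also name CASAVA (1.7), Cufflinks (2.2.1), edgeR and limma. The deposited values are RPKM for 37907 gene IDs in 42 libraries. The authors added a count proportional to depth (5 reads in the average library) and removed batch means on the log scale before they deposited them, and libraries that stood apart were left out by them. The values hold no 0. Depth was estimated from the recurring lowest values, from 1.33 to 13.2 M reads, and the same values gave the 3 library sets.

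Genes with at least 1 RPKM in at least 4 libraries (33579) were tested on log2(RPKM + 1) by limma (3.58.1, R 4.3.3) with an intensity trend, as 8 group means over all 42 libraries, two-sided, at an adjusted p under 0.1. Single values were compared by exact permutation over 462 splits, for which the smallest two-sided p is 0.00433. The fit was tested on simulated data. RPKM are not counts, so no count model was run. Genes were named by a fixed rule (in each direction, the 12 largest differences among calls with a symbol and no overlap between the nuclei and the 5 highest levels among calls with a difference of at least 1, and the 4 lowest interaction p) and from 32 lists. Some genes of these lists are counted but not reported by name here. Members and lists were chosen with earlier results of these data known. Ratios within libraries were added after seeing the values. Annotation was GENCODE M21 and RefSeq on GRCm38.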

Additional observations from a re-analysis of the deposited data

Results flagged for a closer look

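Single libraries stood apart from the rest of their group, by Dixon's test at the 95% level on log2(RPKM + 1) values, in 34 of 408 sets of libraries tested, where chance flags about 1 in 20. Values below are on that scale. Fed ARC library 1 stood apart for 4933403O08Rik (6.08, the others 4.31 to 4.82), Bsx (6.17, the others 3.48 to 3.92), Cdh13 (2.67, the others 3.36 to 3.63), Gad2 (7.89, the others 6.94 to 7.05), Galr1 (1.85, the others 0.48 to 0.77), Grik3 (3.51, the others 4.18 to 4.37), Grm3 (1.01, the others 2.02 to 2.10), Nefl (5.52, the others 5.83 to 5.92), Pou3f1 (2.46, the others 0.43 to 0.53). Fed ARC library 2 stood apart for Aqp4 (4.44, the others 4.77 to 4.84), Crh (1.22, the others 0.88 to 0.96), Itgam (2.39, the others 3.36 to 3.54), P2ry12 (3.18, the others 2.58 to 2.70). Fed ARC library 3 stood apart for Agt (4.26, the others 4.92 to 5.17), Rgs2 (6.96, the others 6.58 to 6.67), Sstr5 (3.39, the others 1.11 to 1.499). Fed ARC library 4 stood apart for Rbfox3 (4.14, the others 3.52 to 3.70), Scg2 (8.86, the others 9.03 to 9.09), Slc32a1 (4.67, the others 5.26 to 5.37). Fed PVN library 1 stood apart for Gm10800 (9.82, the others 8.45 to 8.87), Gm10801 (7.87, the others 6.45 to 6.93), Isl1 (0.87, the others 0.52 to 0.62), Plagl1 (3.81, the others 2.14 to 2.65), Slco1a4 (4.98, the others 4.18 to 4.39). Fed PVN library 2 stood apart for Cdh13 (3.71, the others 3.92 to 4.005), Dlx1 (3.10, the others 1.11 to 1.51), Gabre (4.28, the others 3.47 to 3.72), Gabrq (6.001, the others 5.51 to 5.64), Pou3f1 (1.20, the others 0.43 to 0.53), Syt1 (5.18, the others 5.25 to 5.29). Fed PVN library 3 stood apart for Gfap (4.37, the others 2.62 to 3.25), Npy2r (2.12, the others 2.96 to 3.45), Sim1 (4.73, the others 4.16 to 4.34), Tacr1 (0.56, the others 1.27 to 1.65).

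The difference between the nuclei differed between fed and fasted mice, by the limma interaction term, for Rgs2 (fed minus fasted difference 1.20), Ppp1r17 (2.08) and Lepr (-1.31).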

How the results depend on the processing

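The fed count of 1388 stayed within a factor of 1.5 with pseudocounts of 0.1 (1384) and 5 (1342), with no filter (1383), a filter at 5 RPKM (1297), quantile normalization (1382), scaling to the sum over named genes (1488, 805 of them higher in the ARC), array weights (1771), the library set as covariate (1274), the fit on the 4 fed groups (1231) and the fit on the fed ARC and PVN libraries alone (992). A similar count need not mean the same genes. Of the 992, 840 were among the 1388 in the same direction, which is 60.5% of the 1388, and of the 1231, 1110 were. The planned median-ratio scaling left every value as deposited. Scaling over genes read in every library, added after seeing the data, gave 1411. Depth as covariate, also added, gave 1371. Leaving out the 3 PVN libraries of high unnamed share gave 932, 771 of them among the 1388 in the same direction, and that share as covariate 935. Testing for a difference over 1 on the log2 scale gave 103 genes in fed and 90 in fasted mice. Leaving out 1 library gave 1175 to 1293 fed and 1188 to 1412 fasted calls. The fasted libraries alone gave 876.

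Libraries of the same number did not deviate together (correlations -0.09 to 0.01 in fed and -0.13 to 0.02 in fasted mice). For fed numbers 2 and 4, the ARC and PVN libraries lay in different library sets. The numbers therefore cannot be taken to mark the same mouse and were not used as pairs. Neither these correlations nor the block below can tell whether nuclei of the same mouse vary together. With the number as a replicate block, 325 fed and 272 fasted genes passed, against 776 and 876 for the same libraries without it. The block gave 0 interaction genes by limma (1083 at an unadjusted p under 0.05), as did the test for a difference over 1 (2).

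The interaction count was 7 with a pseudocount of 5, 5 with the filter at 5 RPKM, 8 with array weights, 1 with unnamed share as covariate and 2 to 7 without 1 library. It was 5 without fed ARC library 4 or fasted PVN library 1, and 7 without fasted ARC library 5, fasted PVN library 4 or fasted PVN library 5. Lepr lost its call with the covariate (adjusted p = 0.247) and with the pseudocount of 0.1, and Ppp1r17 with the covariate. The cause was not tested.

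None of the named genes past the threshold changed direction in any alternative run. Genes near 0 did, without 1 library: Aldh1l1 from -0.31 to 0.10, Cx3cr1 from -0.12 to 0.26, Gfap from -0.081 to 0.38, Glp1r from -0.058 to 0.20, Nts from -0.094 to 0.43, Pmch from -0.35 to 0.21, Pou3f1 from -0.13 to 0.39, and the depth difference from -0.66 to 0.21 M reads. Glp1r was -0.030 with array weights. Without the 3 PVN libraries of high unnamed share Cx3cr1 was -0.021, Nts -0.41 and Pmch 0.22. With that share as covariate Nts was -0.40 and P2ry12 0.093. The 202 genes named include genes that had not passed and so had no call to lose. Of the 202, 30 lost their call without at least 1 library, and 37 lost it without those 3 PVN libraries. The fit on the fed ARC and PVN libraries alone lost 42, the 4 fed groups 17, the shared numbers without the block 61, the replicate block 103 and the test for a difference over 1 118.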
